A study of Mus musculus with 6 samples.

Results

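The expressed noncoding RNA genes of primary mouse hepatic stellate cells were described with and without forskolin, a plant diterpene that activates adenylyl cyclase and raises cyclic AMP. Members were the genes whose deposited annotation ends in ncRNA and whose mean level over the 6 libraries was at least 5 CPM (a gene's count scaled to a common column total). This rule found 240 genes among 3683 rows annotated ncRNA and 24940 rows in all. Of the other noncoding rows, 3443 lay below the threshold, and 1792 of those had no count in any library. The members were thus chosen by their level, and their levels are a description. The rule did not use the difference between the treatments, but its mean takes in both groups, so a gene can reach the threshold through 1 group alone. The DMSO mean was under 5 CPM in 17 members and the forskolin mean in 22, and both means were at or above it in 201. Just inside the threshold were 1700113A16Rik at a mean of 5.01 CPM and BC020402 at 5.04 CPM, and just outside it were Gm45916 at 4.92 CPM and B330016D10Rik at 4.85 CPM.

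Stellate cells are liver pericytes that store retinoids and turn into matrix-producing myofibroblasts in culture and in fibrosis. The cells were isolated from wild-type female C57BL/6JBomTac mice and kept in culture for 2 days. They then received 5 µM forskolin (3 libraries) or the solvent dimethyl sulfoxide (DMSO, 3 libraries) for 3 h, and polyadenylated RNA was sequenced without keeping the strand of origin. The labels do not say whether libraries A, B and C came from separate animals or isolations, so p-values measure the spread between these libraries, which may be technical. Column totals ran from 2770628 in forskolin C to 10607997 in forskolin B, and DMSO C was the other shallow library with 3025990. The summed level of 10 stellate cell markers was 1241 to 1468 CPM with DMSO and 1278 to 1602 CPM with forskolin. The summed levels of 5 hepatocyte, 5 sinusoidal endothelial and 5 macrophage markers reached at most 14.3, 9.58 and 21.7 CPM, with none of them at 0 in every library. Of 4 lymphocyte and 4 cholangiocyte markers, summing to at most 5.41 and 10.1 CPM, Nkg7 and Krt7 were at 0.

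Long noncoding RNAs are transcripts without a long conserved reading frame, and they act, where a function is known, as scaffolds, as decoys, as hosts that release small RNAs from introns or exons, or through the act of transcription beside another gene. Many start close to the promoter of a protein-coding gene and run away from it on the opposite strand, an arrangement called head to head or bidirectional. Here head to head also takes in pairs on opposite strands that overlap at their starts. Cyclic AMP acts largely through protein kinase A and the factor CREB, which binds the palindromic cyclic AMP response element. Without strand information, reads from overlapping exons of opposite strands cannot be told apart.

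The gene with the largest change among the members was AW011738, which starts 2466 bases from the interferon-stimulated gene Isg15 and runs away from it. Its window from 250 bases before to 50 bases after the start, at chr4:156203034-156203333 of the plus strand (mm10, RefSeq promoter table of GRCm38.p6), is shown because it is the start of the strongest riser. Capitals mark the bases from the start site on.
AW011738: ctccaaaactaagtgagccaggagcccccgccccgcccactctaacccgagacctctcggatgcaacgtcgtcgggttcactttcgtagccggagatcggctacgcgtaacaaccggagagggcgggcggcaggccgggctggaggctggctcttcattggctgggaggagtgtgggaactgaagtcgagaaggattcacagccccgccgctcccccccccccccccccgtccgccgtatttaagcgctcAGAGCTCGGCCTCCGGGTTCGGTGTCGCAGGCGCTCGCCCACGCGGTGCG
The window is 67.3% G or C. It holds neither the full cyclic AMP response element TGACGTCA nor its short forms TGACG or CGTCA, which overlap the full site, on either strand. Such a lack of a match concerns these letters in this window alone. Windows were found for 169 of the 240 members: 4 (2.37%) held the full site and 61 (36.1%) a short form, against 1.79% and 20.8% of all 32851 windows in the table. The windows of the table were not limited to genes expressed here, so the sets are unlike, and the difference in shares was not tested. The 4 members with a full site were Snhg15, B230354K17Rik, Gm16062 and 1300002E11Rik, and none of them passed the test of a change. Of the 6 members called higher, 4 had a window, and 0 of these held either form.

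Mature microRNAs are shown for the hosts discussed further on, since these sequences are what such transcripts are known to release. Capitals mark the seed, bases 2 to 8, which pairs with targets. They are from RefSeq, and the libraries did not measure them.
miR-22-3p, within Mir22hg: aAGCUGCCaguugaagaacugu
miR-125b-5p, within 3110039I08Rik: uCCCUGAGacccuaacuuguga
miR-199a-5p, within Dnm3os: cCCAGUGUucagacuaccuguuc
miR-214-3p, within Dnm3os: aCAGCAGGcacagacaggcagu
miR-29b-3p, within A330023F24Rik: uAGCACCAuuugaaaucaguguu
miR-29c-3p, within A330023F24Rik: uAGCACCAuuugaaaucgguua
miR-212-3p, from the row Mir212: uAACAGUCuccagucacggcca
miR-132-3p, from the row Mir132: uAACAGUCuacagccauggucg
The pair from A330023F24Rik shares the seed AGCACCA, and miR-212-3p and miR-132-3p share the seed AACAGUC.

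The members made up a small and even part of the libraries. They held between 0.582% (forskolin A) and 0.643% (DMSO C) of all counts. The summed level was 5820, 5930 and 6202 CPM in forskolin A, B and C and 5881, 6277 and 6430 CPM in DMSO A, B and C. The groups overlapped, with means of 5984 ± 197 (SD, n = 3) and 6196 ± 284 CPM (SD, n = 3), a difference of -212 CPM (exact permutation test, two-sided, p = 0.3, where 0.1 is the smallest p that 3 against 3 libraries can give). In bulk RNA, a lower level from fewer cells of a type and from less RNA per cell cannot be told apart.

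Mean levels of single members ran from 5.01 to 949 CPM with a median of 12.1. There were 19 members of at least 50 CPM and 107 under 10 CPM. The 10 most abundant held 35.4% of all member counts. They were Malat1, Mir22hg, Gm20716, Tug1, Gm38431, Gm44505, 2900097C17Rik (Norad in RefSeq), Gas5, Gm28043 and Neat1. Malat1, a nuclear speckle RNA, had a mean of 949 CPM and, per kilobase of its 6982 bases, 136 CPM. On that same scale of level per length, Mir22hg, the host of miR-22, stood at 132, the small nucleolar RNA host Gas5 at 146, Norad, a decoy of Pumilio proteins, at 22.3, and the paraspeckle scaffold Neat1 at 4.69 CPM per kilobase. The exons of Gm20716 lay 100% within coding exons of Adnp and Dpm1, and those of Gm28043 100% within coding genes' exons too. For Gm38431 this share was 99.8%, so for these 3 abundant rows reads of the coding genes and of the noncoding row cannot be told apart. For Gm44505, 26.3% of the exon bases lay in exons of Cntf. Coding exons under a member's own GENCODE gene name were left out of these shares, which can therefore be too low.

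None of the 10 most abundant members passed the test, beside 2.8% of all tested rows. The level of Malat1 was 742, 769 and 1096 CPM in forskolin A, B and C and 924, 916 and 1279 CPM in DMSO A, B and C, here and below on library totals scaled by TMM. Within each group the C library was the highest, and the groups overlapped (log2 change -0.26 ± 0.20, SE, edgeR adjusted p = 0.728). Neat1 was at 82.5, 98.9 and 78.5 CPM with forskolin and at 99.2, 124 and 100 CPM with DMSO. All 3 forskolin values were below all DMSO values, with a log2 change of -0.31 ± 0.14 (SE) and an edgeR adjusted p of 0.424. For Tug1, an RNA known for its link to repressive chromatin complexes, the log2 change was -0.10 ± 0.11 (SE) and the adjusted p 0.845. Mir22hg, at 193, 198 and 348 CPM with forskolin and 192, 181 and 304 CPM with DMSO, followed the letter of the library more than the treatment.

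Few members passed the test of a change, at a share near that of all tested rows. Of the 240 members, all of which were tested, 8 (3.33%) were called at an adjusted p of 0.05 by edgeR's quasi-likelihood test, against 2.8% of the 12233 rows tested. There were 6 higher, beside 2.22% of all rows, and 2 lower, beside 0.572% of all rows. The count of rises is a description: 4 of the 6, AW011738, 0610040F04Rik, Gm16596 and G530011O06Rik, had DMSO means under 5 CPM and were members through their forskolin level. Of the 201 members with both means at or above 5 CPM, 2 were called higher and 2 lower. The median log2 change was 0.004 over the members and 0.005 over all tested rows. At an unadjusted p under 0.05 there were 26 members (10.8%), beside 12.1% of all rows. The 3 forskolin values did not overlap the 3 DMSO values in 49 members (20.4%, 23 higher and 26 lower), and this held in 20.2% of all rows (10.7% higher and 9.46% lower). A log2 change of at least 1 in either direction was reached by 18 members (7.5%), beside 6.7% of all rows.

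**Figure D1:**
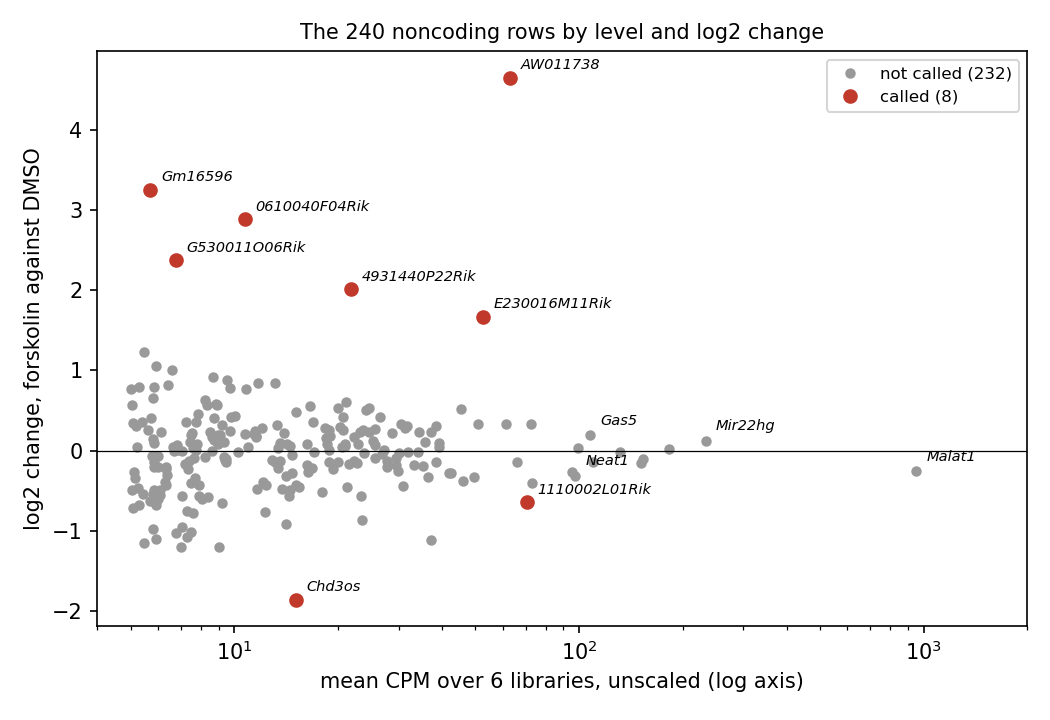
Each point is 1 of the 240 noncoding rows, with the mean CPM over 6 libraries on a log axis and the log2 change of forskolin against DMSO on the other axis; the 8 called rows are in red. AW011738 stands highest with a log2 change of 4.65, Chd3os lowest with -1.86, and the most abundant row, Malat1, lies near 0.

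The 4 members with the firmest rises all lay head to head with a protein-coding gene that rose as well. Of these, AW011738 lay apart from its neighbour and ran away from it. In contrast, 0610040F04Rik, 4931440P22Rik and E230016M11Rik start inside their neighbours and run back across the coding start. AW011738, at chr4:156203284-156206028 on the plus strand, was at 108, 116 and 149 CPM in forskolin A, B and C and at 4.38, 6.68 and 2.03 CPM in DMSO A, B and C. Every forskolin value was far above every DMSO value (log2 change 4.65 ± 0.29, SE, adjusted p = 1.09e-05). The deposited table and RefSeq list the gene as noncoding, while GENCODE M21 gives its transcript of 1 exon as protein coding. It does not overlap Isg15, an interferon-induced ubiquitin-like protein, which was at 55.6, 48.3 and 48.97 CPM with forskolin and 10.5, 12.4 and 10.2 CPM with DMSO (log2 change 2.20 ± 0.20, SE, adjusted p = 0.00015). No exon base of AW011738 lay in an exon of another coding gene.

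0610040F04Rik, on the minus strand at chr6:108577036-108660934, was at 21.7, 20.7 and 13.99 CPM with forskolin and at 1.46, 3.04 and 3.39 CPM with DMSO. The groups were well apart (log2 change 2.88 ± 0.40, SE, adjusted p = 0.0027). Its start lies 305 bases inside that of Bhlhe40, a basic helix-loop-helix repressor of the circadian clock. Bhlhe40 went from 45.2, 54.9 and 52.9 CPM with DMSO to 479, 448 and 511 CPM with forskolin (log2 change 3.23 ± 0.13, SE, adjusted p = 4.48e-07). Of the noncoding transcript's exon bases, 6.8% fell in exons of Bhlhe40.

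4931440P22Rik, at chr3:65527485-65529414 on the minus strand, was at 33.8, 33.1 and 39.3 CPM with forskolin and at 10.4, 5.88 and 10.5 CPM with DMSO. All forskolin libraries exceeded all DMSO libraries (log2 change 2.02 ± 0.28, SE, adjusted p = 0.00255). It overlaps the first part of Tiparp, a mono-ADP-ribosyltransferase known as a target of the aryl hydrocarbon receptor, whose log2 change was 1.78 ± 0.18 (SE, adjusted p = 0.000311). Their start sites are 967 bases apart, and 12.5% of the noncoding exon bases lay in Tiparp exons.

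E230016M11Rik, on the plus strand at chr6:67036599-67080652, was at 66.9, 62.3 and 117 CPM with forskolin and at 25.1, 28.4 and 21.7 CPM with DMSO. The highest value was that of forskolin C, and the groups did not overlap (log2 change 1.67 ± 0.25, SE, adjusted p = 0.00415). Its start lies 808 bases inside that of Gadd45a, a stress-induced regulator of DNA repair and growth arrest, with 13.5% of its exon bases in Gadd45a exons. Gadd45a, too, was highest in forskolin C, at 243, 237 and 396 CPM with forskolin and 92.3, 97.4 and 99.6 CPM with DMSO (log2 change 1.59 ± 0.19, SE, adjusted p = 0.00092).

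**Figure D2:**
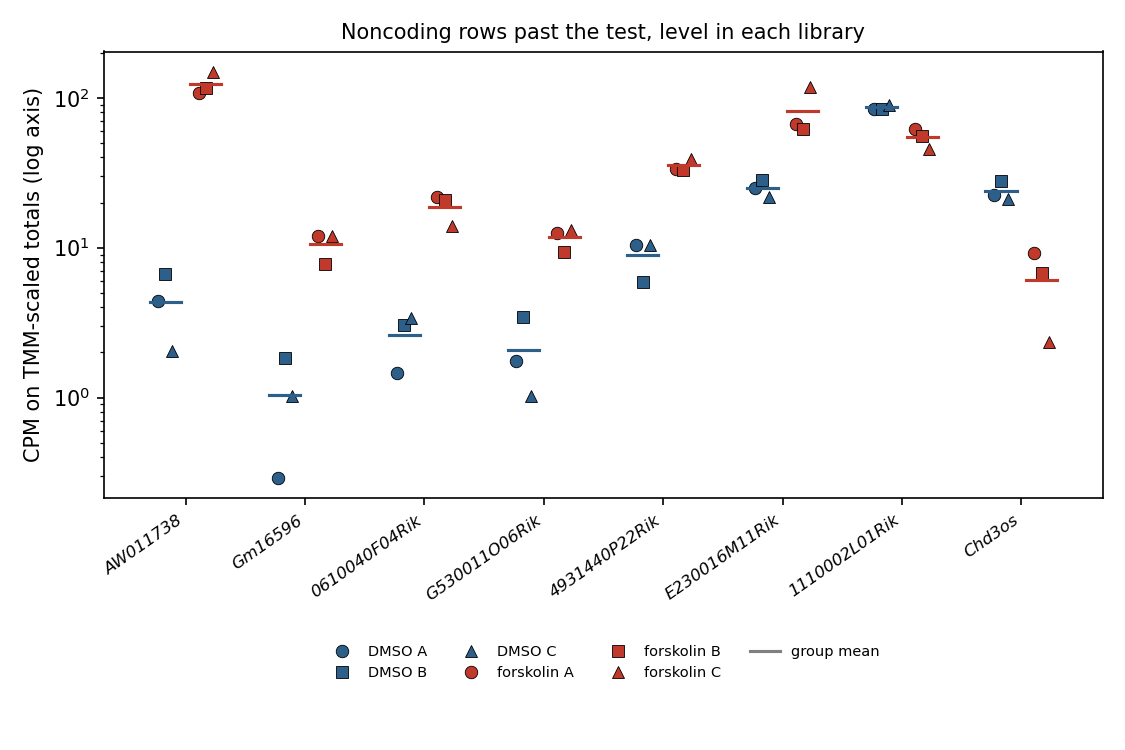
Level of the 8 called noncoding rows in each library, as CPM on TMM-scaled totals on a log axis, with DMSO in blue, forskolin in red, the marker shape giving the library letter and the bar the group mean. In each of the 8 rows the 3 forskolin values lie wholly above or wholly below the 3 DMSO values, most widely for AW011738 (108 to 149 against 2.03 to 6.68 CPM).

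Of the other 4 called members, Gm16596 and 1110002L01Rik have exon bases within a called coding gene that was not the one chosen as nearest. These coding genes were looked up after the values were seen. Gm16596, at chr12:108536402-108555618 on the minus strand, was at 11.9, 7.81 and 12.1 CPM with forskolin and at 0.292, 1.82 and 1.02 CPM with DMSO. The groups were apart, with a log2 change of 3.25 ± 0.64 (SE) and an adjusted p of 0.0226. On column totals, 3 counts equal 0.444 CPM in DMSO A and 0.991 CPM in DMSO C. The DMSO A value was below that level and the DMSO C value near it, so the size of the change is uncertain. Evl, the actin regulator chosen as its neighbour since their starts lie 898 bases apart, had a log2 change of -0.19 ± 0.35 (SE, adjusted p = 0.921). At its other end Gm16596 overlaps the 3' end of the microtubule-associated gene Eml1, and 40.9% of its GENCODE exon bases lay in Eml1 exons. Eml1 rose from 23.9, 26.7 and 14.2 CPM with DMSO to 126, 112 and 86.3 CPM with forskolin (log2 change 2.28 ± 0.23, SE, adjusted p = 0.000296). The call of Gm16596 was lost without forskolin A (adjusted p = 0.165), forskolin B (0.0595), DMSO A (0.0628) or DMSO C (0.0535), with log2 changes of 2.78 to 3.45. With all libraries, it was also lost in limma-voom (adjusted p = 0.0519).

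1110002L01Rik, on the minus strand at chr12:3403883-3426747, was at 62.0, 56.0 and 45.9 CPM with forskolin and at 84.3, 84.4 and 90.1 CPM with DMSO. All forskolin values were lower (log2 change -0.64 ± 0.14, SE, adjusted p = 0.0447). Of the 3569 exon bases of its GENCODE transcript, which is longer than the 3297 bases deposited, 73.3% lay in exons of Kif3c, a kinesin motor on the opposite strand. Kif3c was at 90.0, 84.8 and 76.2 CPM with forskolin and at 117, 111 and 121 CPM with DMSO, which do not overlap. For Kif3c the log2 change was -0.47 ± 0.12 (SE) and the adjusted p 0.0762. At its start, 4.34% of the exon bases of 1110002L01Rik lay in exons of Asxl2, a coding gene on the plus strand. Asxl2 was called lower, with a log2 change of -0.71 ± 0.10 (SE) and an adjusted p of 0.0027. The call of 1110002L01Rik was lost without forskolin A (adjusted p = 0.0863), forskolin B (0.166), DMSO A (0.166), DMSO B (0.174) or DMSO C (0.104), with log2 changes of -0.74 to -0.61. With all libraries, it was also lost in edgeR when scaled by library sizes alone (adjusted p = 0.0702).

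Chd3os, on the plus strand at chr11:69340769-69342647, was at 9.27, 6.78 and 2.33 CPM with forskolin and at 22.6, 27.9 and 21.0 CPM with DMSO. The groups did not overlap, and forskolin C was the lowest of all (log2 change -1.86 ± 0.39, SE, adjusted p = 0.0308). Its symbol in RefSeq is now Rnf227, GENCODE M21 gives it as protein coding, and no base of its exons lay in another coding gene's exons. It ends 626 bases from the end of Chd3, a chromatin remodeller of the NuRD complex, which had a log2 change of -0.05 ± 0.19 (SE, adjusted p = 0.97). The call of Chd3os was lost without forskolin B (adjusted p = 0.109), DMSO A (0.117), DMSO B (0.179) or DMSO C (0.0581).

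G530011O06Rik, on the minus strand at chrX:169975043-169978917, was at 12.6, 9.29 and 13.2 CPM with forskolin and at 1.75, 3.44 and 1.02 CPM with DMSO. The groups were apart (log2 change 2.38 ± 0.50, SE, adjusted p = 0.0327). The DMSO C value was near the 0.991 CPM that 3 counts equal in that library. It lies inside the ubiquitin ligase gene Mid1 on the opposite strand. RefSeq lists a start for this symbol on chromosome Y as well. The mice were female, so a Y copy cannot add reads. Reads may still align to both entries, and the counting rule is not given, so the value is uncertain. Mid1 was at 9.06, 10.4 and 6.22 CPM with forskolin and 5.83, 4.56 and 6.10 CPM with DMSO. Its forskolin values were all above its DMSO values, narrowly in forskolin C, with a log2 change of 0.67 ± 0.40 (SE, adjusted p = 0.598). The call of G530011O06Rik was lost without forskolin A (adjusted p = 0.198), forskolin B (0.0897), DMSO A (0.156) or DMSO C (0.0581), with log2 changes of 2.13 to 2.54. With all libraries, it was also lost in limma-voom (adjusted p = 0.055).

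Beyond these 8, the member nearest to being called was 3110039I08Rik, Mir100hg in RefSeq, which was named after its value was seen. Its span at chr9:41581253-41592829 holds the hairpin of miR-125b. It was at 24.1, 22.9 and 24.1 CPM with forskolin and at 59.2, 61.6 and 30.2 CPM with DMSO. All forskolin values were lower, DMSO C lay well below the other DMSO libraries, and the log2 change was -1.11 ± 0.26 (SE, edgeR adjusted p = 0.0524). Without DMSO C it was -1.36 with an adjusted p of 0.00232. It was called in 8 of 15 alternatives, among them DESeq2 (adjusted p = 0.00491) and limma-voom (0.00907), and over all 15 the adjusted p ran from 2.38e-06 to 0.292.

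Noncoding and neighbouring coding rows were then compared over all members. For each member the nearest protein-coding row that was tested was taken by chromosome, start and end. In 149 members the spans overlapped and in 91 they did not. There were 113 head-to-head pairs, 103 of them with start sites within 2000 bases, beside 59 on the same strand, 45 tail to tail, 20 inside the coding gene on the opposite strand and 3 around it. Of the 113 head-to-head pairs, 66 overlapped at their starts and 47 lay apart. Per kilobase, 186 of the 240 members were below their neighbour, with a median log2 ratio of levels of -1.33.

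Across genes, the log2 change of a member and that of its neighbour went together with a Pearson r of 0.551 and a Spearman rho of 0.371 over 240 pairs. The values of a pair come from the same libraries, and genes are not independent replicates. For the 149 overlapping pairs r was 0.658 and rho 0.589. For the 91 pairs apart from each other r was 0.398 and rho 0.0716. The 63 members with a matched GENCODE transcript and no base in exons of other coding genes had an r of 0.515 and a rho of 0.156. Without AW011738 r over the members was 0.486, and over the 225 pairs in which neither row was called it was 0.314. Protein-coding rows and their nearest coding neighbour had an r of 0.107 and a rho of 0.0995 over 11655 pairs, and an r of 0.17 over the 1389 pairs that lie head to head within 2000 bases.

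Of the 8 called members, 4 had a called neighbour, and in all 4 both rows rose: AW011738 with Isg15, 0610040F04Rik with Bhlhe40, 4931440P22Rik with Tiparp and E230016M11Rik with Gadd45a. Over all tested rows, 13 of 342 called rows (3.8%) had a called neighbour, but few of those rows lie as close to it. Among pairs head to head within 2000 bases this held for 3 of 4 called members and 1 of 7 called protein-coding rows (14.3%). The 4 of 8 is a description, since AW011738 and 0610040F04Rik were members through their forskolin level. Where exons overlap, reads of both rows cannot be told apart.

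**Figure D3:**
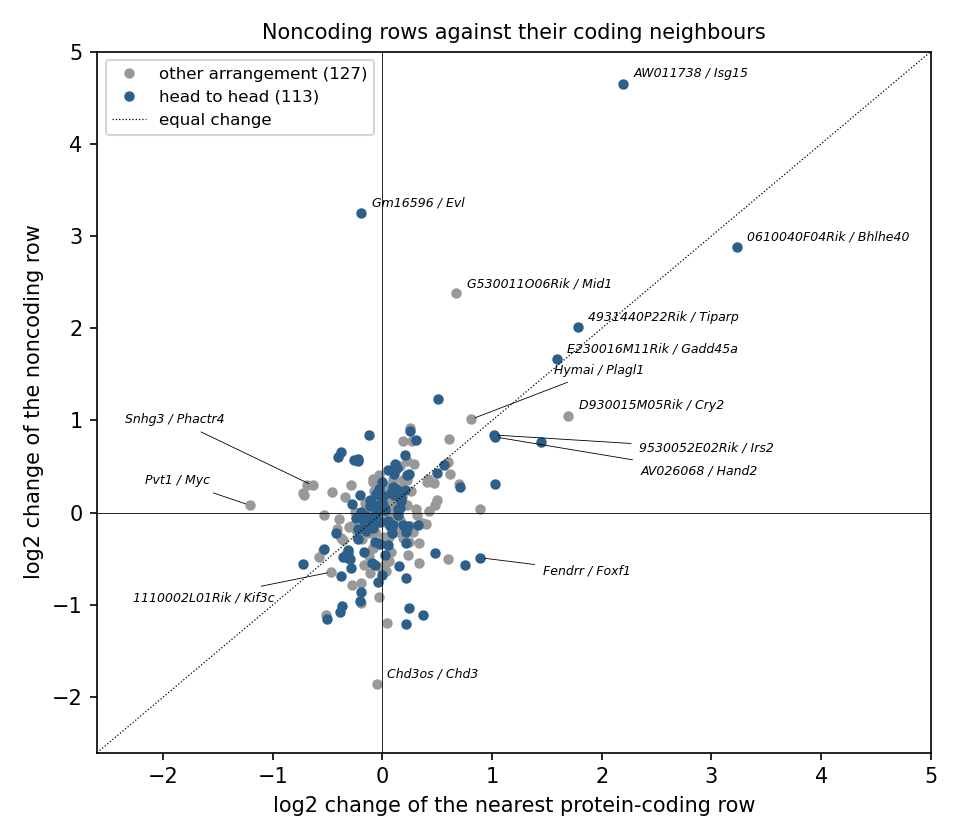
Log2 change of each of the 240 noncoding rows against that of its nearest tested protein-coding row, with 113 head-to-head pairs in blue, the others in grey and a dotted line of equal change. Pairs with a called row are named; Bhlhe40, Tiparp and Gadd45a lie near the dotted line with their noncoding partners, AW011738 lies above it, and Gm16596 (3.25) and Chd3os (-1.86) lie where the neighbour is near 0.

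In 7 further pairs the coding gene was called and the noncoding member was not. These pairs follow from that count and were named after their values were seen. Cry2, a circadian repressor, rose (log2 change 1.69 ± 0.12, SE, adjusted p = 2.08e-05), and D930015M05Rik inside it was at 6.15, 7.99 and 10.1 CPM with forskolin and 2.33, 2.43 and 7.46 CPM with DMSO, with an adjusted p of 0.541. Irs2, the insulin receptor substrate, rose by 1.01 ± 0.11 (SE, log2, adjusted p = 0.00046). Its head-to-head partner 9530052E02Rik was at 13.9, 20.3 and 16.3 CPM with forskolin and 7.88, 8.61 and 12.2 CPM with DMSO, which do not overlap, with a log2 change of 0.84 ± 0.31 (SE, adjusted p = 0.27). For the mesenchymal factor Hand2 the log2 change was 1.03 ± 0.19 (SE, adjusted p = 0.0152), and for AV026068, Hand2os1 in RefSeq, 0.82 ± 0.51 (SE, adjusted p = 0.629). Hymai, within the imprinted zinc finger gene Plagl1, had a log2 change of 1.01 ± 0.43 (SE, adjusted p = 0.373) beside 0.81 ± 0.13 (SE) for Plagl1, which was called.

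In the other 3 pairs the 2 fitted changes had opposite signs. Foxf1, a forkhead factor of the liver mesenchyme, was at 260, 227 and 233 CPM with forskolin and 122, 129 and 138 CPM with DMSO (log2 change 0.89 ± 0.11, SE, adjusted p = 0.000941). Fendrr, which starts 1276 bases away in the opposite direction, was at 6.25, 8.18 and 0 CPM with forskolin and 10.2, 9.02 and 2.03 CPM with DMSO. Both C libraries were its lowest, and the log2 change was -0.49 ± 0.83 (SE, adjusted p = 0.913). The growth regulator Myc fell from 307, 322 and 255 CPM to 132, 130 and 119 CPM (log2 change -1.21 ± 0.12, SE, adjusted p = 0.000251), while Pvt1, downstream on the same strand, was at 25.2, 15.2 and 17.1 CPM with forskolin and 17.5, 20.3 and 16.6 CPM with DMSO. The Pvt1 groups overlapped, with a log2 change of 0.08 ± 0.27 (SE, adjusted p = 0.966) that turned to -0.18 without forskolin A. Phactr4, a protein phosphatase regulator, fell by 0.64 on the log2 scale, and for Snhg3 beside it the log2 change was 0.30 ± 0.23 (SE, adjusted p = 0.724).

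Whether a member changed differently from its neighbour was tested within each library, as the difference of log2 CPM (prior count 2) between both rows. By limma no member of 240 was called, against 0.433% of all tested rows, and 24 members had an unadjusted p under 0.05. AW011738 had the smallest adjusted p among the members, with a difference from Isg15 of 2.69 ± 0.40 (SE, log2, adjusted p = 0.0892). A count model of both rows in edgeR, added after the data were seen, called 1 member, beside 0.809% of all rows: AW011738, with a difference of 2.57 ± 0.38 (SE, log2, adjusted p = 0.0416). In that count model 21 members had an unadjusted p under 0.05. The limma difference was 3.43 ± 0.54 (SE, adjusted p = 0.0966) for Gm16596 against Evl, 1.25 ± 0.24 (SE, adjusted p = 0.151) for Pvt1 against Myc and -2.04 ± 0.40 (SE, adjusted p = 0.155) for Chd3os against Chd3.

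Known classes of noncoding RNA were described by lists that were written with earlier results of these data known. Hosts of small nucleolar RNAs, whose introns release the guides of ribosomal RNA modification, were the largest class with 19 members. None was called, beside 2.8% of all tested rows. Their median log2 change was 0.30, beside 0.005 over all tested rows. At an unadjusted p under 0.05 there were 2 of the 19, beside 12.1% of all rows, and 3 had forskolin values wholly above the DMSO values, beside 10.7% of all rows. Among these 3 was Dancr, at 15.8, 13.3 and 16.7 CPM with forskolin and 7.88, 10.9 and 6.10 CPM with DMSO (log2 change 0.84 ± 0.32, SE, adjusted p = 0.297), named after its value was seen. Gas5, a host whose transcript decays through translation, was at 84.6, 93.5 and 173 CPM with forskolin and 99.2, 80.8 and 124 CPM with DMSO. Snhg1 was at 73.1, 59.3 and 115 CPM with forskolin and 62.1, 55.9 and 75.9 CPM with DMSO. In both genes the C libraries were the highest of their groups and the groups overlapped.

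The shallow C libraries moved together in part of this class. In 6 of the 19 hosts both C libraries were above all 4 A and B libraries, and in 2 they were below all 4. Over all members these counts were 38 (15.8%) above and 26 (10.8%) below, and over all tested rows 14.4% above and 17.2% below. The part of these libraries in the values of the host genes was not tested.

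**Figure D4:**
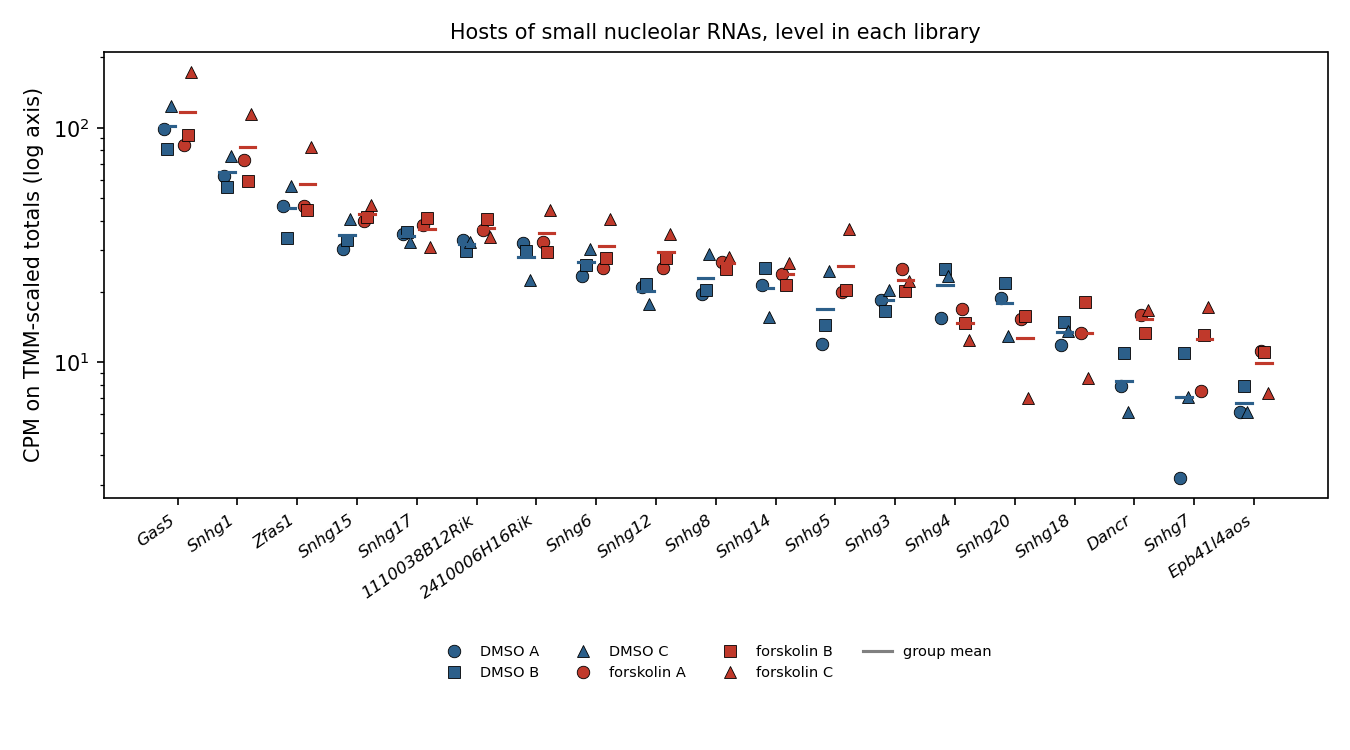
Level of the 19 hosts of small nucleolar RNAs in each library, as CPM on TMM-scaled totals on a log axis, with DMSO in blue, forskolin in red, the marker shape giving the library letter and the bar the group mean. The C libraries (triangles) are the highest for Gas5, Snhg1 and Zfas1, reaching 173, 115 and 82.4 CPM in forskolin C, and the lowest for Snhg20.

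Of the 6 members on the list of microRNA hosts, none was called, beside 2.8% of all tested rows, and the median log2 change was -0.12. Dnm3os, the host of miR-199a and miR-214 known from fibrotic tissue, was at 5.21, 12.5 and 9.33 CPM with forskolin and 10.9, 11.3 and 24.7 CPM with DMSO. Its groups overlapped (log2 change -0.77 ± 0.44, SE, adjusted p = 0.579). Mir17hg, which hosts a cluster of growth-linked microRNAs, was at 28.8, 35.9 and 70.7 CPM with forskolin and 42.6, 58.0 and 63.7 CPM with DMSO, the highest value being that of forskolin C. A330023F24Rik, which spans the miR-29 hairpins known for targeting collagen transcripts, had a log2 change of -0.15 ± 0.23 (SE, adjusted p = 0.89). By position, 22 members hold a microRNA hairpin on their strand, of which 10 are rows of the microRNAs themselves and 12 are host transcripts. Of the 22, 0 were called, beside 2.8% of all tested rows. At an unadjusted p under 0.05 (edgeR) there was 1, beside 12.1% of all rows. Mir22 itself was a member row and lies within Mir22hg, the 1 pair of members that overlap each other.

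Nuclear and chromatin RNAs had 9 members, none called, with a median log2 change of -0.14. The imprinted RNAs had 3 members, none called. Kcnq1ot1, which silences a cluster of imprinted genes in cis, was at 70.2, 72.5 and 61.4 CPM with forskolin and 42.2, 61.8 and 60.0 CPM with DMSO (adjusted p = 0.524). Peg13 was at 33.7, 33.8 and 35.8 CPM with forskolin and 29.8, 29.98 and 21.0 CPM with DMSO, which do not overlap (log2 change 0.33 ± 0.20, SE, adjusted p = 0.606). Rpph1, the RNA of ribonuclease P and the 1 structural small RNA among the members, was at 6.67, 7.06 and 6.996 CPM with forskolin and 8.31, 11.95 and 2.03 CPM with DMSO (adjusted p = 0.966). Of the Rpph1 exon bases, 73.0% lay in exons of the coding gene Ccnb1ip1, where reads of both genes cannot be told apart. A list of RNAs linked to stellate cells and fibrosis had 10 members, none called, with a median log2 change of -0.01. Over all tested rows 2.8% were called, so a lack of calls in lists this short says little about these classes.

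With both C libraries left out, 16 members were called by edgeR, beside 9.76% of all rows in that fit. All 8 members called with 6 libraries were among them. The other 8 included 3110039I08Rik (log2 change -1.37, adjusted p = 2.38e-06), Map2k3os (-1.10, adjusted p = 0.00156), Mir17hg (-0.65, adjusted p = 0.0212), Malat1 (-0.29, adjusted p = 0.0153) and 9530052E02Rik (1.04, adjusted p = 0.032). Map2k3os starts 190 bases from the kinase gene Map2k3 in the opposite direction and was at 15.0, 13.2 and 22.5 CPM with forskolin and 30.5, 29.9 and 29.1 CPM with DMSO. Its forskolin values were below its DMSO values in every library, and with 6 libraries its adjusted p was 0.13.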

How the data were processed

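Polyadenylated RNA of 6 libraries was sequenced. Per the submitters' processing notes, STAR, HOMER and the mm10 build were used; the counting rule is not given in the sources used here. In 1 table the authors deposited expected counts per gene, in steps of 0.5, which were rounded to whole numbers for the tests. Groups came from the labels. Rows passing filterByExpr were fitted in R 4.3.3 with edgeR 4.0.16 (TMM, robust quasi-likelihood F test, forskolin against DMSO) and adjusted by Benjamini-Hochberg over all 12233; a call is an adjusted p of 0.05. Adjusted p-values are edgeR's unless named otherwise. An SE is the absolute log2 change divided by the square root of F and is approximate. The difference from the neighbour used limma 3.58.1 over the same rows. Scripts were tested on simulated data. A value of 3 counts equals 0.283 CPM in forskolin B and 1.08 CPM in forskolin C, for counting error only.

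Members, lists and named genes were chosen with earlier results of these data known. Named are AW011738 and Chd3os, all called members, the 10 most abundant, the 2 most abundant of each of 6 lists, those nearest to the threshold, and the neighbours of named members; for others the text says that they were picked with their values in view. Symbols matched RefSeq for 231 members, and 194 transcripts matched GENCODE M21 exons. The letters A, B and C were not treated as pairs, since the labels state no pairing. Deviations from the group means correlated by 0.09, 0.171 and 0.215 for same letters A, B and C, and by -0.192 to 0.132 for different letters. The C libraries had the highest value, and a shared effect of the letter was not tested. Other settings were scaling by RLE, by upper quartiles or by library sizes, other filters, DESeq2 1.42.0, limma-voom, a replicate block, other prior counts, thresholds and neighbours, and fewer libraries.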

Additional observations from a re-analysis of the deposited data

How the results depend on the processing

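Of 8 called members, AW011738, 4931440P22Rik, 0610040F04Rik and E230016M11Rik were called in all 15 alternatives, Chd3os in 11, Gm16596 and G530011O06Rik in 10 and 1110002L01Rik in 9, with 0 reversed. The 8 calls became 16 without both C libraries (8 lower), and 4 to 10 when 1 library was left out (4 to 6 higher, 0 to 4 lower): 5 without forskolin A, 4 without forskolin B or DMSO A, 5 without DMSO C and 10 without forskolin C. Calls of lower members, 2 in the main fit, were 1 with library sizes alone and 4 with DESeq2 or limma-voom. The limited depth of the C libraries bounds what low members can show.

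Over all rows, 342 calls (272 higher, 70 lower) became 620 (463 and 157) without a filter, 553 (409 and 144) with DESeq2, 1229 (738 and 491) without both C libraries, and 185 to 485 with 1 library left out (162 to 372 higher, 21 to 113 lower). Limma-voom gave 125 lower. A replicate block gave 649 calls (455 and 194), of which 9 were members, with 3110039I08Rik among them (adjusted p = 0.0205); the letters share a label and not each library correlated best with its own letter. The 53 differences from a neighbour became 81 with a prior count of 5, 34 without overlapping rows, 16 without both C libraries, 0 with the replicate block, 0 to 16 with 1 library left out, and 99 with the count model, which called 1 member. The causes were not tested.

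For 34 named members with 15 alternatives each, 510 values in all, the sign turned in 18, all for uncalled members near 0. With 1 library left out, the log2 change ran from -0.187 to 0.384 for Mir22hg, -0.00222 to 0.0449 for Gm20716, -0.0690 to 0.0314 for Gm44505, -0.164 to 0.386 for Gas5, -0.105 to 0.145 for Gm28043, -0.560 to 0.353 for Rpph1, -0.182 to 0.239 for Pvt1 and -0.247 to 0.0358 for A330023F24Rik. Upper quartile factors gave Gm20716 -0.00789, library sizes alone Gm20716 -0.0145 and Gm28043 -0.000509, the replicate block Rpph1 0.0148, and leaving out both C libraries Gas5 -0.0143.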

Other observations

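Among the noncoding rows under the threshold of 5 CPM, 252 were tested and 1 was called: Mir212, at chr11:75173388-75173478, named after its value was seen. Its deposited counts were 35.5, 39 and 9 in forskolin A, B and C and 1, 0 and 0 in DMSO A, B and C (log2 change 5.72 ± 1.21, SE, edgeR adjusted p = 0.0325). The nearby row Mir132, at chr11:75173682-75173747, had counts of 20.5, 14.5 and 12.5 with forskolin and 0 in all 3 DMSO libraries, with an adjusted p of 0.105. Both hairpins are known to come from 1 precursor transcript that CREB induces in neurons. The counts lie in polyadenylated RNA and so do not measure the mature microRNAs.

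In 3830408C21Rik, a member of low level that was named after its values were seen, forskolin C stood apart from forskolin A and B. It was at 0.417, 1.30 and 9.72 CPM in forskolin A, B and C and at 6.27, 6.28 and 9.49 CPM in DMSO A, B and C. With 6 libraries the log2 change was -1.15 (edgeR adjusted p = 0.755), and without both C libraries it was -2.84 (adjusted p = 0.00948).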
